A study of Danio rerio with 9 samples.

Results

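Circular RNAs (circRNAs) in zebrafish brain were compared between 3 libraries labelled CYP toxication and 3 libraries labelled CPF toxication. CYP and CPF are the usual short forms of cypermethrin and chlorpyrifos, the insecticides that the series title gives for acute toxication. The comparison took every circRNA with at least 1 read in at least 2 of these 6 libraries, which gave 1378 of the 2581 circRNAs of the deposited table. The series also holds 3 brain libraries of fish with no toxication (control), which were used here as a reference level and to define abundance classes. Dose, exposure time, strain, age and sex of the fish, any batch and the number of fish per library are not stated in the labels or tables used here. Replicates of a group may therefore be technical, so p-values reflect the spread between libraries, which need not be the spread between fish. In bulk tissue, fewer cells of a type and less RNA per cell cannot be told apart.

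A circRNA forms when a downstream splice donor of a transcript joins an upstream splice acceptor, a reaction called back-splicing. The closed ring has no free ends, resists exonucleases and can persist longer than its linear counterpart, and brain is among the tissues richest in circRNAs. Sequencing reads that cross the back-splice junction distinguish the ring from linear RNA, so the unit here is junction reads per 1000000 reads of a library (RPM). Cypermethrin is a pyrethroid that keeps voltage-gated sodium channels open. Chlorpyrifos is an organophosphate whose oxon metabolite inhibits acetylcholinesterase. The 2 compounds belong to different chemical classes, and the comparison sets one exposure against the other rather than a compound against an analogue. The table names each circRNA by a number (dre_circ_) and no host gene was used here, so the labelled tissue was not checked against marker genes and no function can be attached to a circRNA below.

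The signal was sparse. The 1378 circRNAs had a median of 6 reads summed over the 6 libraries, 952 of them (69.1%) had under 10, and 36 had 50 or more. In units of 1000000 reads, the 6 library totals ran from 68.7 to 91.0, taking the smallest value above 0 of each library as 1 read. At these totals 1 read equals 0.0110 to 0.0145 RPM, and a count of 0 allows up to 3 reads, or 0.0330 to 0.0436 RPM. Such limits and the 95% counting intervals below cover counting error only, since reads copied by PCR are not independent molecules. Within each group the 3 libraries differed by more than sampling noise. Chi-square values divided by their degrees of freedom were 1.46 to 2.07 for pairs of CYP libraries and 1.44 to 1.66 for pairs of CPF libraries. Pairs of libraries from different groups gave 1.45 to 2.31, a range that overlaps both. Across the 1378 circRNAs, log2 levels correlated at a Pearson r of 0.228 to 0.309 between CYP libraries, 0.423 to 0.430 between CPF libraries and 0.268 to 0.390 between libraries of different groups. These are descriptions across circRNAs, which are not independent replicates, and sparse reads lower all of them. Among CYP libraries, CYP 1 had a low share of circRNAs with a single read (25.1%, against 48.2% in CYP 2 and 50.7% in CYP 3), and in CPF libraries that share was 35.3% to 46.0%. The lowest share was in control 1 (12.6%, against 41.9% in control 2 and 47.4% in control 3). Control 1 also held the fewest circRNAs, 470 against 694 and 679.

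The limits of the membership rule show how thin the signal was. Of the members, 472 were found in exactly 2 of the 6 libraries, with a median of 3 reads. Of these, 230 had both libraries in CPF, 21 had both in CYP and 221 had 1 in each. Just outside the rule, 964 circRNAs were found in exactly 1 library, 661 of them in a CPF and 303 in a CYP library, and 529 of the 964 rested on 1 read. A further 239 circRNAs of the table had reads in control libraries alone. A member with reads in a single group had to differ between the groups: 313 members had 0 reads in CYP and 24 had 0 reads in CPF, while 1041 had reads in both.

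Over the circRNAs kept in the deposited table, CPF libraries carried about 2 times the signal of CYP libraries. Summed over all 2581 circRNAs, the level was 25.5, 25.6 and 18.2 RPM in CYP 1, 2 and 3 and 41.4, 56.0 and 44.3 RPM in CPF 1, 2 and 3. All 3 CPF libraries lay above all 3 CYP libraries, and the 95% counting interval of the lowest CPF library (40.1 to 42.7 RPM) stood far from that of the highest CYP library (24.4 to 26.8 RPM). The log2 ratio of CYP to CPF was -1.04 (SE 0.21, n = 3 each), with an exact two-sided permutation p of 0.1, the lowest that this design can reach. The ratio was -1.08 over the 1378 members and -1.0 without the 10 most abundant circRNAs. CYP 3 was the lowest library, and without it the ratio was -0.88. The control libraries, at 21.9 to 24.7 RPM, lay within the range of the CYP libraries.

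Many circRNAs contributed to the gap of 24.2 RPM between the group means. Of the 2581 circRNAs, 1667 had a higher mean in CPF and 675 a higher mean in CYP, and their differences summed to 30.1 RPM and -5.99 RPM. Those with reads in only 1 of the groups could fall in 1 direction only, so this split is a description. They include 661 circRNAs found in 1 CPF library alone and 303 found in 1 CYP library alone. Members with 0 reads in CYP (313) or in CPF (24) are also among them. The single circRNA with the largest difference accounted for 4.11% of the gap, the 10 with the largest for 15.04% and the 100 with the largest for 45.6%.

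Within the deposited table, CPF libraries also held more kinds of circRNA. The table keeps 2581 circRNAs with numbers up to 10372, by a filter not stated in the labels or headers. It keeps 36.3% of the numbers up to 3300, the highest with reads in CPF 1. Of the numbers in the further ranges that end at the highest of each library, it keeps 23.0% for CPF 2, 18.5% for CPF 3 and 15.8% to 21.6% for the CYP libraries. The part of this filter in the detected numbers and in the summed levels was not tested. A read was found for 637, 765 and 619 circRNAs in CYP 1, 2 and 3 and for 1198, 1246 and 1112 in CPF 1, 2 and 3, again without overlap. The log2 ratio was -0.82 (SE 0.11; exact two-sided permutation p = 0.1, n = 3 each). The gap was smaller at equal reads. At the 1299 circRNA reads of the smallest library, the numbers calculated for an equal draw were 534, 649 and 619 in CYP and 688, 673 and 696 in CPF. The groups still did not overlap (log2 ratio -0.19, SE 0.09; two-sided p = 0.1 by exact permutation). Without CYP 1 the ratio was -0.11 (SE 0.04). Adjusted by Benjamini-Hochberg over 8 exact tests, the 3 given so far and those of the 5 control-level classes below, every p stayed at 0.1. Exact tests at equal circRNA totals are not among these 8.

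**Figure D1:**
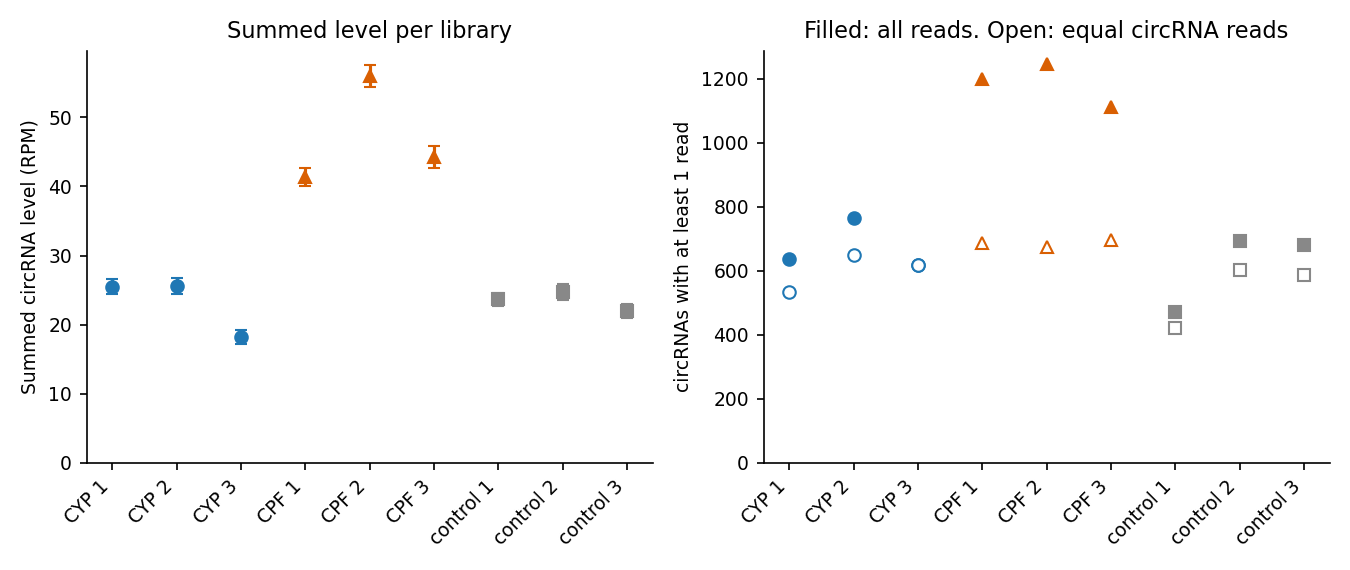
Left, summed circRNA level per library in RPM with its 95% counting interval (bars, Poisson). Right, number of circRNAs with at least 1 read per library, from all reads (filled) and calculated for 1299 circRNA reads (open), with control libraries added for reference. The 3 CPF libraries lie at 41.4 to 56.0 RPM and the 3 CYP libraries at 18.2 to 25.6 RPM, and the gap in detected circRNAs narrows at equal reads.

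The gap was present in every class when circRNAs were classed by their level in control libraries, which are outside the comparison. The 2581 circRNAs were divided by their mean level in the 3 control libraries into those at 0 (1313) and 4 classes of 317. Those at 0 are in the table only through CYP or CPF reads. The lowest class above 0 spanned control means of 0.0035 to 0.0047 RPM, and the next reached 0.0106 RPM. In a control library 1 read equals 0.0106 to 0.0140 RPM, so these lower classes rest on very few control reads and are coarse levels of abundance. In the class at 0 in control, the summed level was 6.76 ± 1.40 RPM in CYP and 11.9 ± 2.03 in CPF (SD, n = 3 each), a log2 ratio of -0.82 (SE 0.22). In the lowest class above 0 it was 2.19 ± 0.511 and 4.65 ± 0.881 RPM (-1.10, SE 0.25). The next class gave 2.28 ± 0.618 and 4.58 ± 0.821 RPM (-1.03, SE 0.28). The third gave 2.87 ± 0.266 and 5.80 ± 1.21 RPM (-1.0, SE 0.19). In the class most abundant in control, CYP libraries summed to 9.35, 10.6 and 6.99 RPM and CPF libraries to 18.3, 23.6 and 19.0 RPM (-1.19, SE 0.21). The groups did not overlap in any of the 5 classes, and each exact two-sided permutation p was 0.1, also after adjustment over the 5 classes. Control libraries picked the classes, so their own level in a class (14.6 ± 1.69 RPM in the most abundant one) is not set against the exposures.

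As shares of the circRNA reads the classes moved little, and not all one way. With every library scaled to equal circRNA totals, the log2 ratio of CYP to CPF was 0.22 (SE 0.07) for circRNAs at 0 in control and -0.15 (SE 0.05) for the most abundant class, each with an exact permutation p of 0.1. It was -0.06, 0.01 and 0.04 in the 3 classes between, each smaller than its SE.

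**Figure D2:**
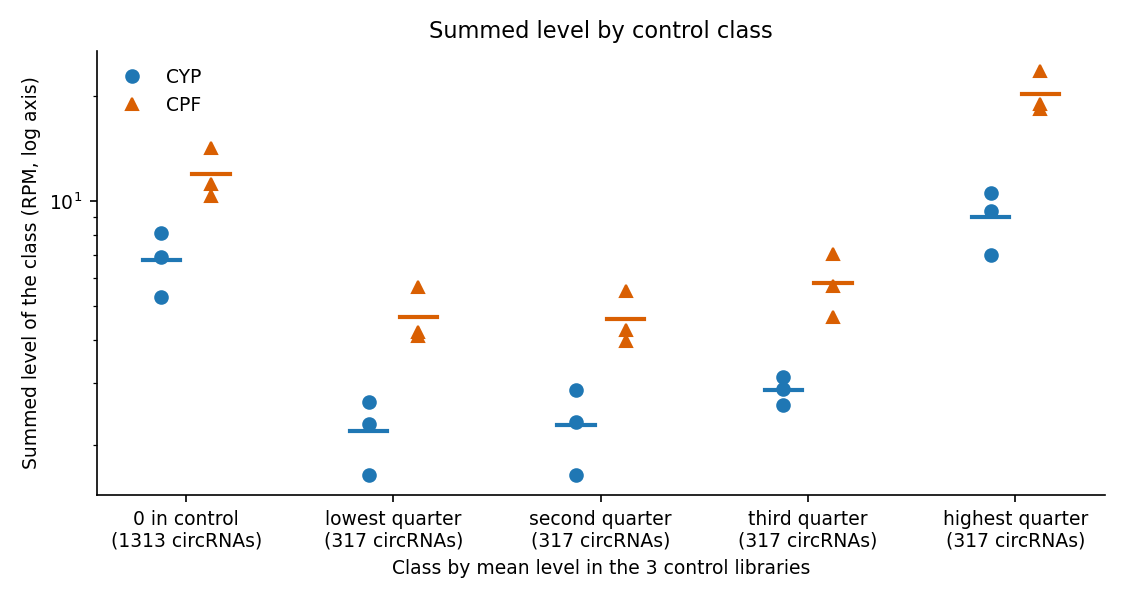
Summed level in RPM (log axis) of 5 classes of circRNAs defined by their mean level in control libraries, with 1 point per library and a bar at the group mean. CPF libraries lie above CYP libraries in every class, by a factor of 1.77 in the class at 0 in control and 2.28 in the most abundant class.

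Over single circRNAs the shift was broad and the spread was wide. By limma on log2(RPM + 0.0126), fitted to all 9 libraries, the median log2 fold change of CYP over CPF among the 1378 members was -0.60 (quartiles -1.03 and -0.01) and the median SE of a circRNA was 0.71. The fitted value was lower in CYP for 1044 members (75.8%) and higher for 334 (24.2%). The rule itself lets reads in CPF alone bring a circRNA in, so this split is a description. In the 1041 members with reads in both groups the median was -0.33, with 731 lower and 310 higher. In the 123 members found in all 6 libraries it was -0.71 (quartiles -1.26 and -0.18), with 103 lower and 20 higher. Those 123 held 1767 CYP and 3919 CPF reads, and their median coefficient of variation within a group was 52.9% in CYP and 43.9% in CPF.

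Every CYP library lay below every CPF library for 201 members (14.6% of 1378) and above for 11 (0.798%). The 201 include 83 with reads in every CPF library and 0 reads in CYP, which could not come out otherwise. The 11 include 3 of the reverse kind. In the class most abundant in control, 64 of 254 members (25.2%) were lower without overlap, against 50 of 527 (9.49%) among those at 0 in control. The share rises with level, and at few reads libraries tie at 0, so it is no measure of where the shift was larger. With equal circRNA totals the counts were 117 lower (8.49%) and 31 higher (2.25%).

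By limma with Benjamini-Hochberg adjustment at 0.05, 1 circRNA passed as lower in CYP (0.0726% of those tested) and 0 passed as higher. At an unadjusted p under 0.05 there were 235 lower (17.1%) and 13 higher (0.943%). Members with 0 reads in CYP (313) or in CPF (24) could come out in 1 direction only, so this split is a description. The counts differed with the scaling and with the test. With limma kept and the scaling changed, they were 114 and 22 at equal circRNA totals and 30 and 29 after quantile normalization. With the library totals kept and the test changed to edgeR, they were 113 and 3. Where both changed, they were 54 and 8 in edgeR under TMM and 5 and 7 in DESeq2. In the order named, the median log2 fold change of these 5 settings was -0.17, -0.01, -1.06, -0.67 and -0.01, and none of them called a circRNA in either direction. Leaving out CPF 1, CPF 2 or CPF 3 raised the calls lower in CYP to 73, 81 and 76, of which 70, 76 and 71 had 0 reads in CYP and a median of 3, 3 and 4 reads in the remaining CPF libraries. In those fits the prior degrees of freedom were 5.27, 5.55 and 4.47, against infinite with all libraries, and 31 circRNAs were called in all of them. Leaving out CYP 1 gave 0 calls, control 1 gave 4 and control 2 gave 2.

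**Figure D3:**
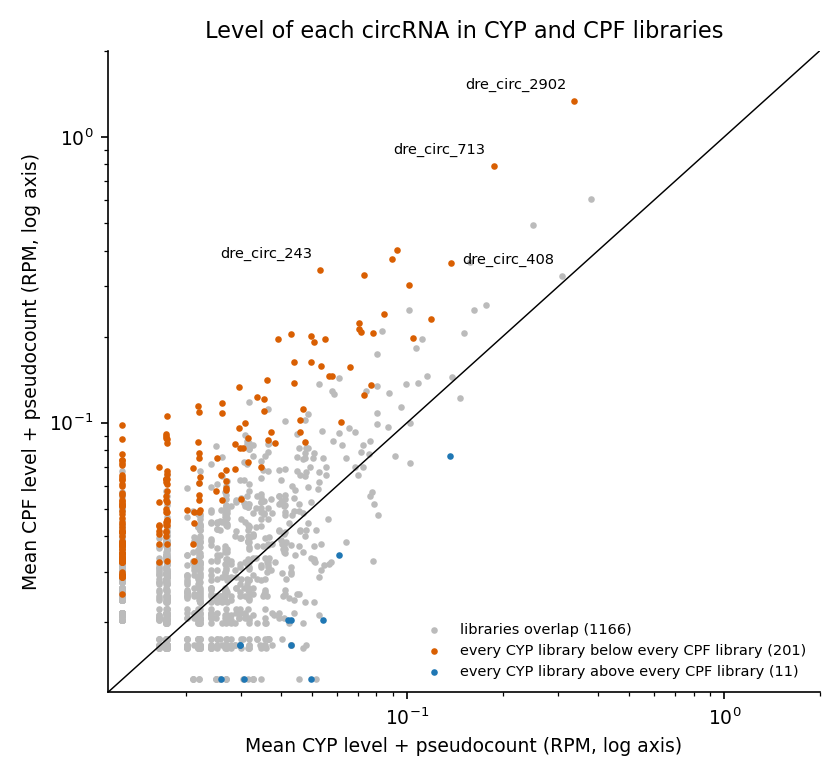
Mean level of each of the 1378 circRNAs in the 3 CYP libraries (x axis) and the 3 CPF libraries (y axis), both in RPM plus the pseudocount of 0.0126 on log axes, with the line of equality. The 201 circRNAs with every CYP library below every CPF library and the 11 with every CYP library above are coloured, and the bulk of the points lies above the line.

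dre_circ_2902 was the one that passed, and it was also the circRNA with the highest mean over the 6 libraries. It had 0.206, 0.446 and 0.322 RPM in CYP 1, 2 and 3 (18, 31 and 23 reads) and 1.14, 1.61 and 1.19 RPM in CPF 1, 2 and 3 (104, 133 and 82 reads). No CYP library came near a CPF library. The log2 fold change was -2.03 (SE 0.43, 95% interval -2.88 to -1.18, limma adjusted p = 0.0041). With reads pooled by group and divided by the pooled library totals, it was 4.18-fold lower in CYP. Control libraries stood at 0.454, 0.475 and 0.733 RPM, above every CYP and below every CPF library. It took 0.808%, 1.74% and 1.77% of the circRNA reads of the CYP libraries and 2.76%, 2.88% and 2.69% of those of the CPF libraries, so it was lower in CYP also as a share. Control shares were 1.92%, 1.92% and 3.34%, so control 3 lay above every CPF library on this scale, and the order of the 3 groups in RPM did not hold for it. The CPF cells of this circRNA had lost their decimal point in the deposited table, and these CPF values rest on placing it after the first digit, which returned whole reads. The call was lost without CYP 1 (log2 fold change -1.75, adjusted p = 0.350), at equal circRNA totals (-1.01, adjusted p = 0.491), after quantile normalization (-0.42, adjusted p = 0.824), in edgeR under TMM (-1.59, adjusted p = 0.644), in edgeR on library totals (-2.02, adjusted p = 0.071) and in DESeq2 (-0.92, adjusted p = 0.991).

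Next by p-value came dre_circ_243 and dre_circ_713, which missed the threshold. dre_circ_243 had 2, 3 and 4 reads in CYP (0.0229, 0.0431 and 0.0560 RPM) and 35, 28 and 18 reads in CPF (0.385, 0.340 and 0.262 RPM). The groups were 8.49-fold apart in pooled RPM, that is, pooled reads over pooled library totals. The fitted log2 change was -2.71 (SE 0.70; limma adjusted p = 0.068). Control libraries, at 0.137, 0.112 and 0.278 RPM, lay above every CYP library, and control 3 lay above the lowest CPF library. dre_circ_713 had 0.252, 0.244 and 0.0280 RPM in CYP and 0.418, 0.983 and 0.931 RPM in CPF, a fitted log2 change of -2.40 (SE 0.65; limma adjusted p = 0.095). CYP 3 held 2 of its 41 CYP reads, and the change was -1.50 without CYP 3. Its control libraries had 0, 12 and 10 reads. Both circRNAs passed with the compared groups alone (adjusted p = 0.0080 and 6.0e-04), with the larger pseudocount of 0.0506 RPM (0.038 for each) and with the filter of 4 of 6 libraries (0.024 and 0.041). dre_circ_243 also passed without control 1, without control 2 and without any 1 CPF library (limma adjusted p = 0.0041 to 0.038), and dre_circ_713 without control 1 (0.0015). Without CPF 1, 2 and 3 the unadjusted limma p of dre_circ_243 was 0.0020, 0.0013 and 0.0010, against 9.9e-05 with all libraries. Its adjusted p fell in those fits, which called 73, 81 and 76 circRNAs, nearly all of them at 0 reads in CYP. dre_circ_1450 was similar in size, with 6, 11 and 1 reads in CYP and 32, 49 and 15 in CPF, a fitted log2 change of -2.37 (SE 0.73; limma adjusted p = 0.236). It passed with the compared groups alone (0.025) and without control 1 (0.028).

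Other highly ranked circRNAs were near the detection limit in CYP. dre_circ_1742 had 0, 1 and 0 reads in CYP and 10, 8 and 5 in CPF, a fitted log2 change of -2.69 (SE 0.80; limma adjusted p = 0.175). dre_circ_2616 had 0 reads in each CYP library and 6 in each CPF library, at least 5.66-fold lower in CYP when 3 reads over the group are taken as the limit. dre_circ_2302 had 0 reads in CYP and 2, 11 and 7 in CPF, at least 6.29-fold lower. These bounds take the CPF reads as exact. Also at 0 in all CYP libraries were dre_circ_1302 with 16 CPF reads and dre_circ_1018 and dre_circ_2744 with 14 each. None of the 5 passed (limma adjusted p = 0.125 to 0.236). Without 1 CPF library dre_circ_2302, dre_circ_1018, dre_circ_2744 and dre_circ_1302 each passed in 1 of 3 fits and dre_circ_1742 in 2 (limma adjusted p = 0.022 to 0.049). Those fits called 73 to 81 circRNAs, nearly all at 0 reads in CYP, which could come out in 1 direction only. Where these circRNAs passed, the unadjusted limma p was larger than with all libraries, except for dre_circ_1302. Of the circRNAs named in this paragraph, dre_circ_1302 alone had reads in all 3 control libraries (2, 2 and 1).

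All of the 10 circRNAs with the highest mean over the 6 libraries had a lower fitted value in CYP. That mean includes both groups. For 5 of them the libraries did not overlap: dre_circ_2902, dre_circ_713, dre_circ_3268, dre_circ_1450 and dre_circ_3218. The background for this is the 14.6% of all members, which are mostly too sparse to separate. dre_circ_3218 had 0.103, 0.0575 and 0.0699 RPM in CYP and 0.220, 0.425 and 0.436 in CPF, a fitted log2 change of -2.03 (SE 0.74; limma adjusted p = 0.237). dre_circ_3268 had 0.0915, 0.101 and 0.182 RPM in CYP and 0.385, 0.316 and 0.349 in CPF (-1.45, SE 0.59; limma adjusted p = 0.277). Its control libraries, at 0.280 to 0.422 RPM, overlapped the CPF libraries and lay above every CYP library. Those of dre_circ_3218, at 0, 0.0839 and 0.0632 RPM, did not exceed the highest CYP library. In 4 others the libraries overlapped. dre_circ_33 ran from 0.140 to 0.572 RPM in CYP and 0.330 to 0.898 in CPF, and dre_circ_517 from 0.140 to 0.388 and 0.364 to 0.704. dre_circ_2369 ran from 0.0800 to 0.230 RPM in CYP and 0.189 to 0.570 in CPF, and dre_circ_2518 from 0.0800 to 0.302 and 0.209 to 0.267. Their log2 fold changes were -0.74 to -1.18 (limma adjusted p = 0.292 to 0.588). The sign turned for dre_circ_33 and dre_circ_2518 at equal circRNA totals (0.23 and 0.22), for dre_circ_33 and dre_circ_517 after quantile normalization (0.47 and 0.0045), and for these 3 in DESeq2.

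**Figure D4:**
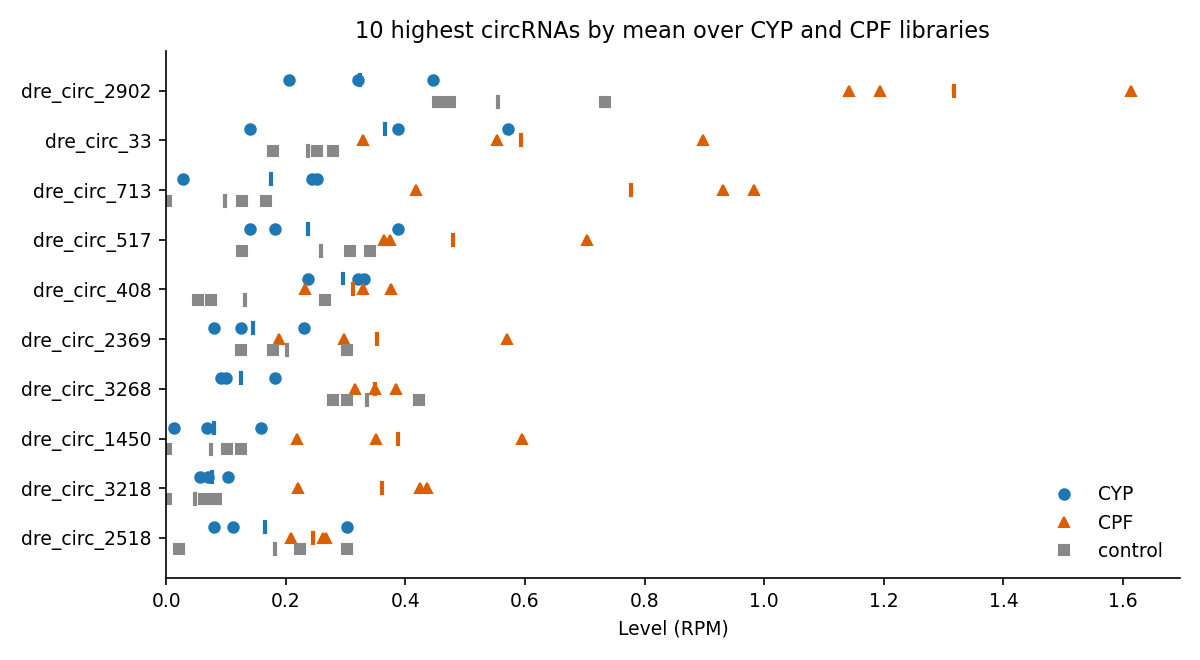
Level in RPM of the 10 circRNAs with the highest mean over the CYP and CPF libraries, with 1 point per library and a short bar at each group mean (control libraries added for reference). dre_circ_2902 lies at 0.206 to 0.446 RPM in CYP and 1.14 to 1.61 RPM in CPF, while dre_circ_408 lies at 0.238 to 0.331 RPM in CYP and 0.233 to 0.376 RPM in CPF.

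A few abundant circRNAs had fitted changes near 0, with intervals wide enough to include the median shift of all members. dre_circ_408, number 5 in abundance, had 0.320, 0.331 and 0.238 RPM in CYP and 0.330, 0.376 and 0.233 in CPF. Its log2 fold change was -0.06, with a 95% interval of -1.27 to 1.14 (limma adjusted p = 0.984). As a share of circRNA reads it was higher in all CYP libraries (1.26%, 1.29% and 1.31%) than in any CPF library (0.797%, 0.672% and 0.525%), and with equal circRNA totals the log2 fold change was 0.93 (limma adjusted p = 0.630). Control libraries held 5, 19 and 6 of its reads, or 0.0528 to 0.266 RPM. Among the 50 most abundant, dre_circ_1593, dre_circ_1625, dre_circ_2428 and dre_circ_2337 also had log2 fold changes near 0 (-0.18 to 0.16, SE 0.74 to 0.81), each with overlapping libraries. They were chosen for the small size of the change, and their signs differ with the scaling or the libraries used.

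Of the 50 most abundant, 48 had a lower fitted value in CYP. Their ranking used the same CYP and CPF values and so favours circRNAs high in CPF, and the count is a description. For 26 of them every CYP library lay below every CPF library, and for 1 every CYP library lay above. The same held for 14.6% and 0.798% of all members, which are mostly sparser. The 1 that lay above, dre_circ_68, was named after its values were seen. It had 9, 11 and 8 reads in CYP (0.103, 0.158 and 0.112 RPM), 7, 7 and 2 in CPF (0.0769, 0.0850 and 0.0291 RPM) and 0, 3 and 2 in control, with a log2 fold change of 0.92 (SE 0.80; limma adjusted p = 0.577). It was also the only one of the 123 members found in all 6 libraries that was higher in CYP without overlap, against 39 that were lower.

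Presence and absence were uneven in the same direction. Of the 1378 members, 83 were found in every CPF library and in no CYP library. The reverse held for 3. CPF libraries held 3045 to 4614 circRNA reads and CYP libraries 1299 to 2228. The part of these read totals in the uneven presence was not tested, and no such count was made at equal reads. The 83 rested on few reads, with a median of 6 and a highest value of 20 over the CPF group, and 17 had at least 10. Of the 83, 51 had reads in control libraries and 32 had none there. Only 4 circRNAs had at least 3 reads in every library of one group and 0 in the other, all of them present in CPF: dre_circ_2616 (6, 6 and 6 reads), dre_circ_2962 (4, 3 and 5), dre_circ_1383 (5, 5 and 3) and dre_circ_2291 (4, 4 and 4). dre_circ_1383 had 12 reads in control beside 13 in CPF, and dre_circ_2291 had 7 beside 12. dre_circ_2962 had 4 control reads, all in control 2.

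**Figure D5:**
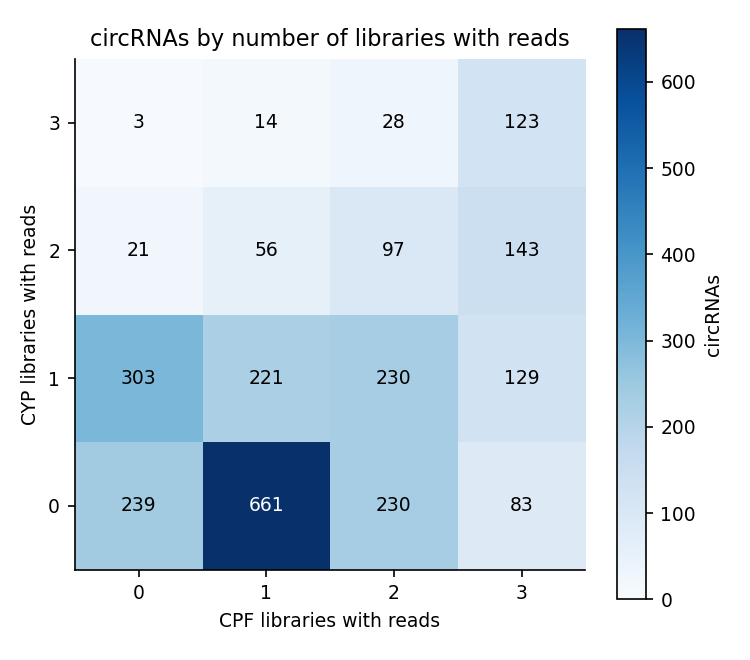
Number of circRNAs of the table by how many CPF libraries (x axis) and how many CYP libraries (y axis) held at least 1 read. The corner found in all CPF and no CYP libraries holds 83 and the opposite corner 3, while 123 were found in all 6 libraries. The cells with fewer than 2 libraries in all lie outside the 1378 members.

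The circRNAs with the smallest p-values among those higher in CYP were all at 0 in CPF and rested on 3 to 10 reads. dre_circ_7181 led them, with 1, 4 and 3 reads in CYP and 0 in CPF, a fitted log2 change of 1.84 (SE 0.73; limma adjusted p = 0.277). With its few CYP reads taken as exact and 3 reads as the limit in CPF, it was at least 2.83-fold higher in CYP. dre_circ_7515 (1, 1 and 2 reads) and dre_circ_7311 (1 in each) were the others present in all 3 CYP libraries. dre_circ_7678, with 5, 0 and 3 reads, and dre_circ_7616, with 9, 1 and 0, had libraries that tied with CPF at 0. The 5 others, dre_circ_7340, dre_circ_7462, dre_circ_7755, dre_circ_8304 and dre_circ_7623, had 3 to 5 reads in 2 CYP libraries. All 10 stood at a limma adjusted p of 0.277, and 8 of the 10 had 0 reads in control.

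The contrasts with control, which share these libraries, are given beside the direct one for the same 1378 circRNAs. The median log2 fold change was 0.07 for CYP over control and 0.65 for CPF over control. At an unadjusted limma p under 0.05, 36 (2.61%) were higher and 22 (1.60%) lower in CYP than in control, and 259 (18.8%) were higher and 2 (0.145%) lower in CPF than in control. At an adjusted limma p under 0.05 the counts were 0 for CYP and 6 higher (0.435%) for CPF. By group means, 894 members were highest in CPF, 309 in CYP and 175 in control. The order CYP, control, CPF from low to high held for 284, and the reverse order for 62. The rule admitted circRNAs by their CYP and CPF reads and not by control reads, which lowers the number that can be highest in control. With 0 control reads, 527 members could not come out lower in an exposure than in control. The medians and counts against control are therefore tilted upward and are descriptions.

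The authors' deposited table for this pair lists 62 circRNAs, all lower in CYP and all among the members. Its log2 fold changes, restored with the decimal point after the first digit, ran from -2.94 to -1.36 in the authors' deposited table. All 62 equalled the log2 ratio of pooled reads plus 3 within 0.001. The authors' deposited table gives dre_circ_2902 a log2 fold change of -2.10 and dre_circ_243 one of -2.81, both with an adjusted p of 0.146, the smallest in it. The 62 held a median of 25.5 CPF and 4.5 CYP reads, and 13 had 0 reads in CYP. In the limma fit all 62 were lower in CYP with a median log2 fold change of -2.12, and in 56 the libraries did not overlap. Over all members 75.8% were lower, the median was -0.60, and 14.6% were lower without overlap. The list was chosen on these samples and so is no independent evidence of direction.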

How the data were processed

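Brain RNA was extracted with Trizol and made into Illumina libraries, per the labels' protocols. Control and CYP values were deposited as RPM, that is, junction reads scaled by the authors to 1000000 reads of the library. In the CPF columns the deposited signal is on that scale too, apart from 3 cells of dre_circ_2902 whose lost decimal point was restored. The smallest value above 0 in each library was taken as 1 read, and library totals and read counts were derived from it. All values (100%) were whole multiples of that value at a tolerance of 1e-06, so reads were recovered for edgeR and DESeq2. The authors' deposited table also gives a p-value and a log2 fold change for each listed circRNA, with replicates pooled per the file headers, and the lost decimal point of the log2 values was placed after the first digit. The submitters' processing notes name DESeq2 and the build UMD3.1, both with no role. UMD3.1 is a cattle assembly and not a zebrafish one, so the genome behind the junction reads is uncertain. Aligner, caller of circRNAs and table filter: not given in the sources used here.

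limma 3.58.1 (mean-variance trend, empirical Bayes, R 4.3.3) was fitted to log2(RPM + 0.0126), the pseudocount being the median value of 1 read, on the 1378 circRNAs with all 9 libraries. The scale understates changes of low circRNAs. The prior degrees of freedom were infinite, so each circRNA took its spread from the trend. For sums and numbers, two-sided exact permutation tests were run in Python 3.11.15 with scipy 1.17.1, and numbers at equal reads are hypergeometric expectations. Control classes of equal size split ties by table order. edgeR 4.0.16 and DESeq2 1.42.0 (default settings) were alternatives. The fit was tested on simulated data with no broad shift between groups, which checks the code and not its power on these data.

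Named circRNAs were those called, the 10 smallest p in each direction, the 10 most abundant, those with at least 3 reads in each library of one group and 0 in the other, the 5 of the 50 most abundant with the smallest change, and the 5 most abundant in control, which the other parts of the rule name already. Members and lists were chosen with earlier results of these data known.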

Additional observations from a re-analysis of the deposited data

How the results depend on the processing

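The number of circRNAs lower in CYP at a limma adjusted p under 0.05 was 1, and 0 were higher under every alternative. It was 0 with equal circRNA totals, quantile normalization, edgeR with TMM, edgeR on library totals, DESeq2 and without dre_circ_2902 (the last chosen after seeing the data). It was 3 with the larger pseudocount, 3 with the filter of 4 of 6 libraries, 4 when the 6 compared libraries were fitted alone and 3 with the replicate block. Leaving out 1 library gave 0 (without CYP 1) to 81 (without CPF 2). Without CPF 1 and CPF 3 the counts were 73 and 76, and 31 circRNAs were called in all 3 of these fits. Of the 81, 76 had 0 reads in CYP and 73 had at most 6 reads in the remaining CPF libraries, and the prior degrees of freedom were 4.47 to 5.55 in these 3 fits. Without control 1 and control 2 the counts were 4 and 2. Libraries did not overlap for 117 lower (8.49% of 1378) and 31 higher (2.25%) with equal circRNA totals. The filter of 4 of 6 libraries left 118 lower, among 534 circRNAs. Among circRNAs with control reads 7 were higher, and this set leaves out the 527 members with 0 control reads. Leaving out 1 CYP or CPF library gave 236 to 381 lower and 16 to 34 higher, against 201 and 11 with all libraries. With fewer libraries to overlap, these counts could only stay or rise. The rule of at least 2 libraries with reads then kept 1131 to 1296 circRNAs, against 1378, so the shares differ more than the counts. With equal circRNA totals the log2 ratio became positive for circRNAs at 0 in control (0.22) and for the middle classes of control level (0.0082 and 0.041). The cause of the other changes was not tested. Deviations of same-numbered CYP and CPF libraries from their group means correlated at r -0.04 to 0.03. Sparse reads lower such correlations, so this check cannot exclude pairing. The numbers were not taken as pairs in the main fit. With the replicate block dre_circ_243 and dre_circ_713 passed beside dre_circ_2902 (limma adjusted p = 0.027 and 0.036), and the log2 ratios were -1.04 (SE 0.18) for summed level and -0.82 (SE 0.06) for detected numbers.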

Other observations

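The circRNA numbers follow the order in which libraries first held a circRNA. Reads of CPF 1 occur in circRNAs numbered up to 3300, those of CPF 2 up to 5730 and those of CPF 3 up to 7123, followed by CYP 1 (7678), CYP 2 (8392), CYP 3 (8928), control 1 (9274), control 2 (9783) and control 3 (10372). All 559 deposited circRNAs numbered from 3301 to 5730 had reads in CPF 2, all 258 of the next band had reads in CPF 3, and the same held for all 120, 113 and 94 of the CYP bands. A circRNA with reads in CYP and none in CPF therefore has a number above 7123 in this table. This pattern was noticed after the values were seen.

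The share of these numbers that the deposited table holds differs between bands. The table has 1198 (36.3%) of the numbers up to 3300, 23.0% of the CPF 2 band, 18.5% of the CPF 3 band, 21.6%, 15.8% and 17.5% of the CYP 1, CYP 2 and CYP 3 bands, and 26.9%, 15.3% and 11.5% of the control bands. The circRNAs behind the other numbers were not analysed here.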
